A study of Mus musculus with 4 samples.

Results

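The secreted and membrane proteins that steer growing axons, and the receptors that read them, were measured as 49 genes in mouse embryonic fibroblasts (MEFs) that lack cyclin G1 or cyclin G2. Genes were taken by their name on the array when it belonged to the semaphorins of classes 3 to 7, the ephrins, the Slits or the netrins, which are ligands, or to the neuropilins, plexins, Eph receptors, Robo or Unc5 families, which are receptors. The array held 65 such genes, 33 ligands and 32 receptors, on 119 probes, out of 27745 gene names in all. Each gene was read on its brightest probe, and 49 genes (29 ligands and 20 receptors) were above background in both comparisons. Another 6 genes were above background in the G1KO comparison alone, 5 in the G2KO comparison alone and 5 in neither, and these are described apart.

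The study compared MEFs of mid-gestation knockout embryos with wild-type (WT) MEFs on 4 two-colour arrays of a single slide. G1KO MEFs carried CycG1-/-, in which every coding exon of Ccng1 had been taken out, and were set against CycG1+/+ MEFs of strain C57BL/6J. G2KO MEFs carried CycG2-/- and were set against CycG2+/+ MEFs, with the strain given as C57BL/6J in one label field and as C57BL/7J in another. All cultures were growing logarithmically in DMEM with fetal bovine serum and had received no other treatment, and each RNA came from 1 culture. Each knockout was hybridized with its WT on 2 arrays with the dyes exchanged, so every genotype is 1 replicate, the SD between arrays is technical, and no p-value can be given for any difference. A gene was called higher or lower when both arrays of its pair gave a log2 ratio of knockout over WT of 1 or more in size, which is 2-fold, with the same sign.

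These families were named for their work in the nervous system, where a growth cone turns toward or away from a source according to the receptors it carries. Class 3 semaphorins are secreted and bind neuropilins, which signal through plexins, whereas most other semaphorins bind plexins directly. Ephrins stay on the cell surface and meet Eph receptors of a neighbouring cell, Slits bind Robo receptors, and netrins bind Dcc and the Unc5 receptors. The same molecules guide migration, adhesion and boundary formation of many cells outside the nervous system, fibroblasts and endothelium included.

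The labels were checked on the targeted genes. Ccng1 fell by 6.67 on the log2 scale in G1KO MEFs (log2 ratios of -6.76 and -6.58 on the 2 arrays). By contrast, Ccng2 had log2 ratios of 0.28 and -0.11 in the G2KO-labelled RNA, and the position of its probe relative to the deleted part is not given in the sources used here. The Ccng2 probe therefore does not check that label, every direction in the G2KO comparison rests on it, and the sample is called the G2KO-labelled RNA below. Ccng1 was called 6.35-fold higher in the G2KO-labelled RNA than in its WT (2.65 and 2.69). The mean log2 signal of Ccng1 was 13.8 in the G2KO-labelled RNA, 11.13 in its WT and 13.68 in the WT of the G1KO pair. The cause of this difference was not tested. Xist was higher in both knockout RNAs (mean log2 ratios of 7.54 and 7.24), and the Y-linked Eif2s3y was lower by at least 82.3-fold in G1KO MEFs and by at least 51.2-fold in the other knockout, so the sex of the embryos and the genotype cannot be told apart.

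Of the 49 genes, 4 were called in both comparisons: Nrp1 was higher in both, Sema3d was lower in both, and Epha4 and Unc5c moved in opposite directions. Their upstream sequences are shown because these are the genes that passed the call rule in both comparisons. Each is the 250 bases before the RefSeq start on the gene's strand (build GRCm38.p6), with capitals for each match, on either strand, to the letters CCAAT of the CCAAT box, to GGGCGG of the GC box or to TATAAA of the TATA box. The windows lie at chr8:128358823-128359072 (plus strand, Nrp1), chr5:12382916-12383165 (plus strand, Sema3d), chr1:77515089-77515338 (minus strand, Epha4) and chr3:141465314-141465563 (plus strand, Unc5c).
Nrp1: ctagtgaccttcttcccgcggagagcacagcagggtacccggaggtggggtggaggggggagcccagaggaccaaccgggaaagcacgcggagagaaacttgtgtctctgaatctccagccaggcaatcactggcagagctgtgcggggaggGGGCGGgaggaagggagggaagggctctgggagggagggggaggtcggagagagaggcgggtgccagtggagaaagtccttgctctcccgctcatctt
Sema3d: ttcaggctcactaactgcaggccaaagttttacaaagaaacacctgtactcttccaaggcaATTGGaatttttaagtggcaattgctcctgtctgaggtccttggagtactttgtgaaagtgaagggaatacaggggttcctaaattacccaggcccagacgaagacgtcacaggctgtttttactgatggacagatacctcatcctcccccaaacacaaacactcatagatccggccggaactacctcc
Epha4: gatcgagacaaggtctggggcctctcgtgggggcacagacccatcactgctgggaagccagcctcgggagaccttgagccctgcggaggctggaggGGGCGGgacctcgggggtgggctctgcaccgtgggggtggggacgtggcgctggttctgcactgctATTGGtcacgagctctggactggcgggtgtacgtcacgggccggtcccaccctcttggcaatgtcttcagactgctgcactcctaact
Unc5c: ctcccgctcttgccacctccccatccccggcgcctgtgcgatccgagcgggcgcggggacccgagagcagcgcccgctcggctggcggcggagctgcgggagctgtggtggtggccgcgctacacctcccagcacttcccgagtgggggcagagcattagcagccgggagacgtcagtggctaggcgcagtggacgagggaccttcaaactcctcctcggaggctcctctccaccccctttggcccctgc

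The GGGCGG letters stood in the Nrp1 window 98 bases before the start and in the Epha4 window 154 bases before it. The CCAAT letters stood in reverse in the Sema3d window 189 bases before the start and in the Epha4 window 88 bases before it, and the Unc5c window held no match. Over the 56 windows that RefSeq gives for 43 of the 49 genes, GGGCGG was present in 73.2%, beside 57.2% of the 12887 windows of genes detected in both comparisons and 32.7% of all 32851 windows. CCAAT was present in 26.8% of the windows of the axon guidance genes, in 35.1% of those of detected genes and in 33.8% of all windows. For TATAAA the shares were 3.57%, 6.95% and 12.4%. A match describes the letters in a window of this length, and a missing match says only that they are not there.

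The share of axon guidance genes called was above that of all detected genes in each comparison, a difference that was not tested. In G1KO MEFs, 8 of the 49 genes (16.3%) were called, 6 higher and 2 lower. By the same rule 6.41% of the 15731 genes detected in both comparisons were called on their brightest probe, 2.4% higher and 4.0% lower. In the G2KO-labelled RNA, 15 genes (30.6%) were called, 8 higher and 7 lower, where 7.47% of all detected genes were, 2.55% higher and 4.92% lower. The WT cultures of the pairs also differed from each other: 21 genes (42.9%) were at least 2-fold apart in both dyes, 11 higher in the WT of the G1KO pair and 10 lower, where 12.2% of all detected genes were, 5.71% higher and 6.54% lower. On the G1KO array with knockout RNA in Cy3 taken alone, 5 genes in place of 2 passed as lower. The scanner's own ratios gave 14 calls (28.6%) in G1KO MEFs where 10.6% of all detected genes were called, median centring gave 5 (10.2%) where 3.22% were, and a demand that both genotypes be well above background gave 4 of 41 genes (9.76%) where 5.97% were. Counted over every detected probe in place of 1 probe per gene, the shares were 5.79%, 6.37% and 11.0%. No shift in 1 direction accompanied these counts, since the median log2 ratio over the 49 genes was 0.00 in G1KO MEFs and -0.12 in the G2KO-labelled RNA, beside 0.00 and -0.02 over those 15731 genes. The WT cultures are labelled CycG1+/+ and CycG2+/+, so neither label gives the genotype at the other gene. Theirs is the only comparison between WT cultures in these data. In the WT of the G1KO pair Ccng1 was higher by 2.55 and Ccng2 lower by 1.26 on the log2 scale than in the other WT. The deposited names of the cultures also carry different PDL numbers, which the labels do not define, and their part in the differences was not tested. The WT cultures shared no array, so their difference was read between arrays, within each dye and after scaling. Each knockout ratio was read within an array, so the counts are not of the same kind. The count called between the WT cultures exceeded that of either knockout comparison. A difference of a knockout culture from its WT therefore cannot be told apart from a difference between cultures.

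**Figure D1:**
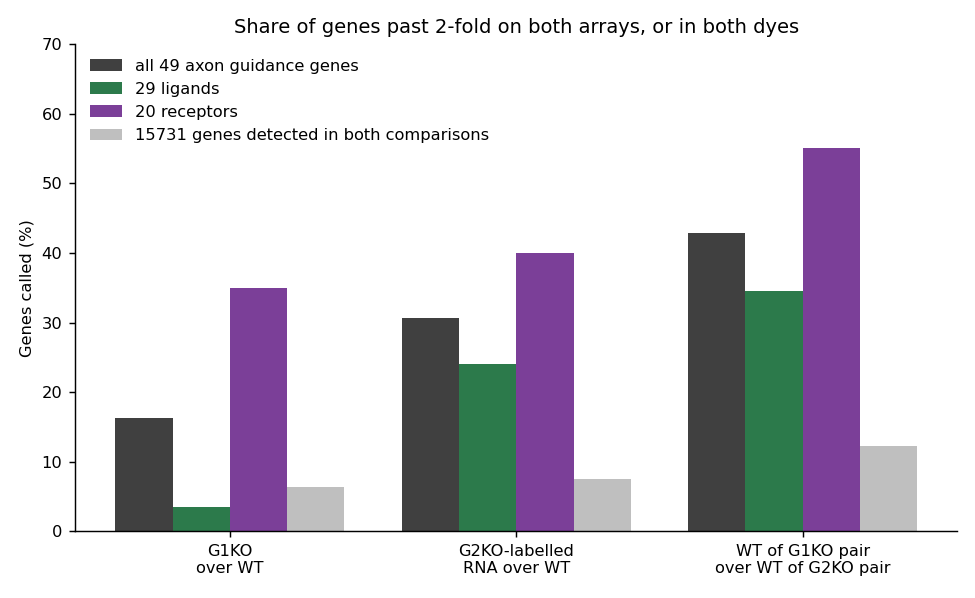
Percent of genes called in each comparison, for the 49 axon guidance genes, the 29 ligands, the 20 receptors and the 15731 genes detected in both comparisons (bars from 0). Receptors were called in 35.0% to 55.0%, ligands in 3.45% to 34.5%, and all genes in 6.41% to 12.2%.

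Receptors accounted for 7 of the 8 calls in G1KO MEFs. Of the 20 receptors, 6 were higher and 1 lower (35.0%), and their median log2 ratio was 0.62. Of the 29 ligands, 1 was lower (3.45%), and their median was -0.08. In the G2KO-labelled RNA the calls were spread over both classes, with 8 of the 20 receptors (40.0%) and 7 of the 29 ligands (24.1%). Over all detected genes the shares called were 6.41% in G1KO MEFs and 7.47% in the G2KO-labelled RNA. The difference between receptors and ligands was not tested, since genes are not replicates.

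**Figure D2:**
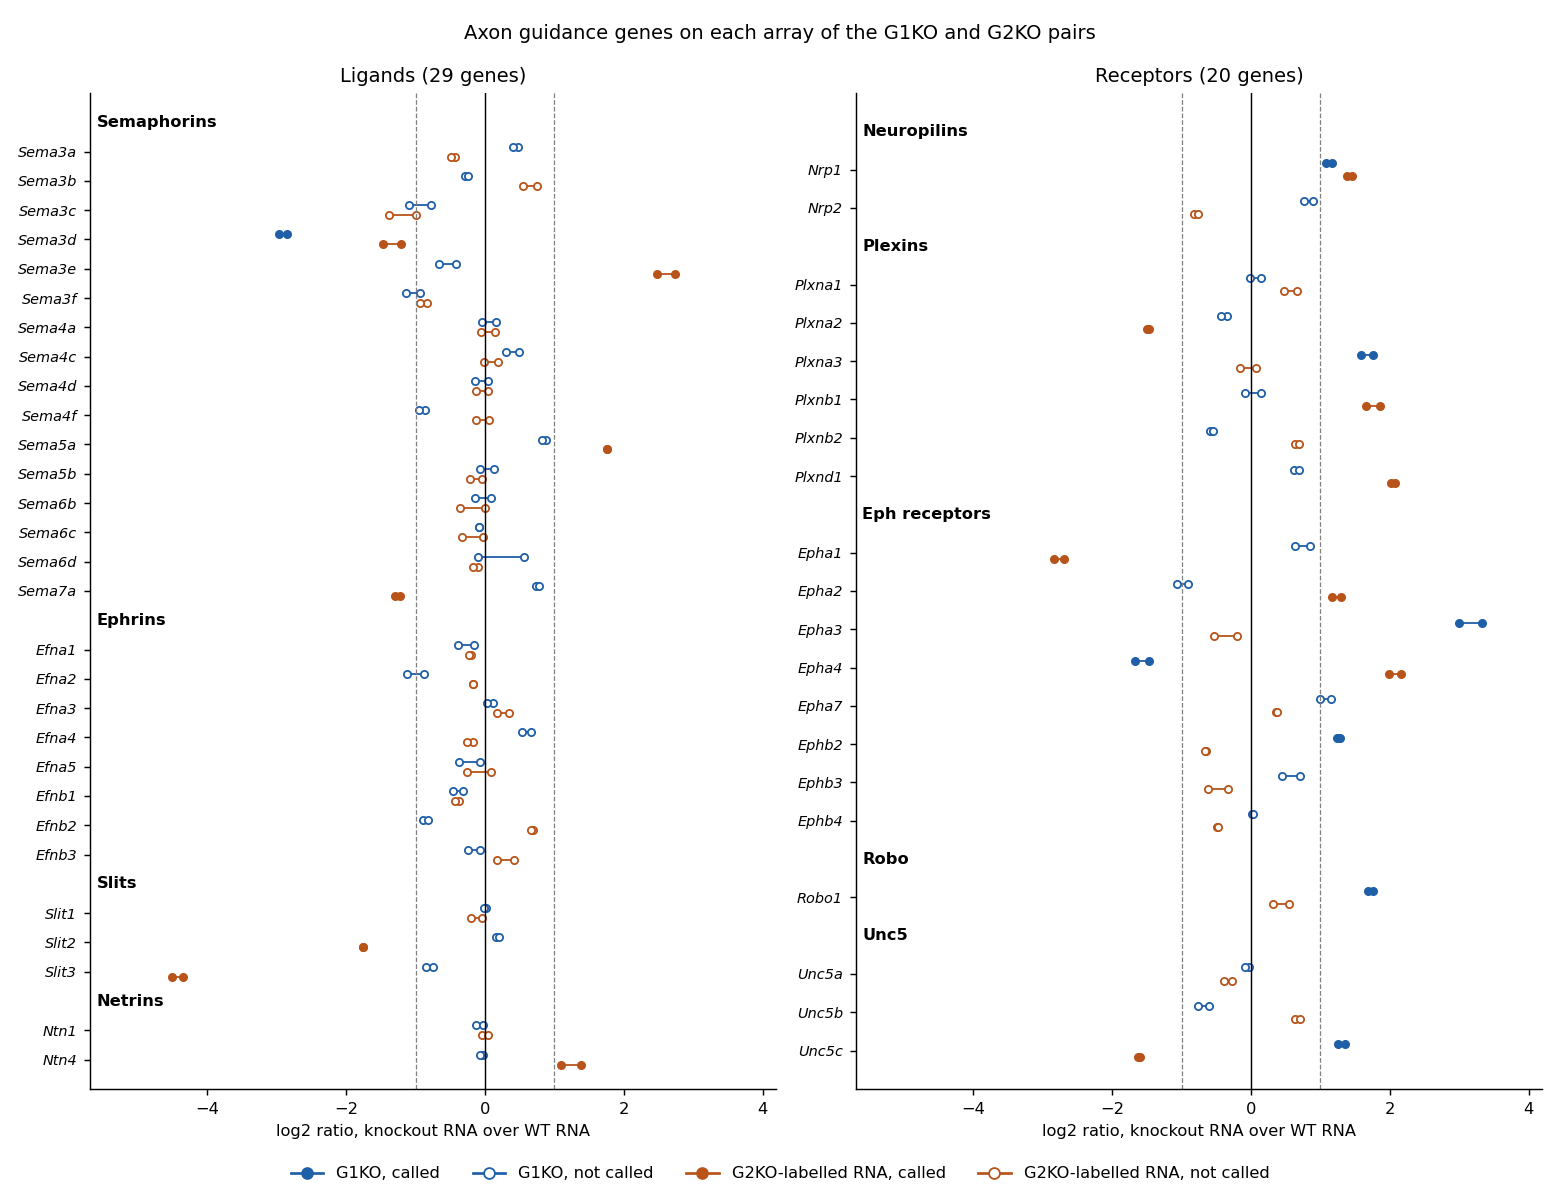
Log2 ratio of knockout over WT RNA for each of the 49 genes, by family, with 1 point per array of the dye-swapped pair, blue for G1KO and orange for the G2KO-labelled RNA, filled where the gene was called; dashed lines mark a log2 ratio of 1 in size. The points of a pair lie close together, at a median SD of 0.10 in both comparisons, and the largest values are Epha3 in G1KO MEFs and Slit3 in the G2KO-labelled RNA.

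The class 3 semaphorins, secreted ligands that often repel axons and endothelial cells, held the ligand that was lower in both comparisons. Sema3d, which acts in neural crest and vascular patterning, had log2 ratios of -2.97 and -2.85 in G1KO MEFs and of -1.46 and -1.21 in the G2KO-labelled RNA. Its log2 signal was 10.16 and 10.31 in the WT of the G1KO pair and 7.19 and 7.46 in G1KO MEFs. In the other pair the WT had 7.29 and 7.43, and the G2KO-labelled RNA did not rise well above background, so that Sema3d was lower there by at least 2.42-fold. The G1KO culture and the WT culture of the other pair thus overlapped in signal, and the WT of the G1KO pair stood alone above the other cultures.

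Sema3c, which acts in the formation of the cardiac outflow tract, and Sema3f, a ligand of neuropilin 2, lay below 0 on all 4 arrays without being called on their brightest probes. Sema3c had log2 ratios of -0.78 and -1.10 in G1KO MEFs and of -0.998 and -1.38 in the G2KO-labelled RNA, the second pair missing the rule by less than 0.01. Sema3f had -0.93 and -1.14 in G1KO MEFs and -0.83 and -0.94 in the G2KO-labelled RNA. A dimmer probe of each gene passed the rule in 1 comparison: that of Sema3c had -2.05 and -1.86 in the G2KO-labelled RNA, and that of Sema3f had -1.21 and -1.27 in G1KO MEFs. Sema3a, the classical growth cone collapsing factor, moved little and in opposite directions, with means of 0.44 and -0.46.

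Sema3e, which signals through plexin D1 without a neuropilin, was the ligand with the largest rise. In the G2KO-labelled RNA it was 6.10-fold higher, with log2 ratios of 2.74 and 2.48, and its probes at other positions gave mean log2 ratios of 1.35 and 1.23 where they were detected. In G1KO MEFs its log2 ratios were -0.41 and -0.66. Its log2 signal was 10.43 and 10.49 in the WT of the G1KO pair, 8.82 and 8.98 in the WT of the other pair, and 11.56 and 11.46 in the G2KO-labelled RNA, which was above every other culture.

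Of the transmembrane and anchored semaphorins, Sema5a and Sema7a were called. Sema5a, which carries thrombospondin repeats and can attract or repel axons, was 3.37-fold higher in the G2KO-labelled RNA (log2 ratios of 1.75 and 1.75, with a mean of 0.76 on a dimmer probe) and had 0.88 and 0.82 in G1KO MEFs. Sema7a, which is held to the membrane by a lipid anchor and binds integrins and plexin C1, was 2.39-fold lower in the G2KO-labelled RNA (-1.22 and -1.29) and had 0.73 and 0.77 in G1KO MEFs. The WT cultures lay far apart for both genes. The WT of the G1KO pair was lower than the WT of the G2KO pair by 3.77 for Sema7a and by 1.84 for Sema5a on the log2 scale, more than either knockout differed from its WT. The mean log2 ratios of the 4 class 4 semaphorins ranged from -0.91 (Sema4f) to 0.40 in G1KO MEFs and from -0.04 to 0.08 in the G2KO-labelled RNA, and those of the 3 class 6 semaphorins lay within 0.23 of 0 in both. The G1KO arrays disagreed most for Sema6d, at 0.56 and -0.11.

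The 8 ephrins had no call in either comparison, where 6.41% and 7.47% of all detected genes were called. Their mean log2 ratios ran from -1.001 (Efna2) to 0.60 (Efna4) in G1KO MEFs and from -0.40 (Efnb1) to 0.68 (Efnb2) in the G2KO-labelled RNA. Efna2 had -0.87 and -1.13 on the G1KO arrays and so missed the rule on 1 array. The WT cultures nevertheless differed in this family: Efna5, Efnb1 and Efnb2 were higher in the WT of the G1KO pair by 1.20, 1.67 and 2.06 on the log2 scale.

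The Slits, large secreted repellents, held the largest change of the set. Slit3, which is made by many mesenchymal cells, was 21.6-fold lower in the G2KO-labelled RNA, with log2 ratios of -4.36 and -4.51. Its log2 signal was 13.57 and 13.60 in the WT of that pair against 9.21 and 9.09 in the G2KO-labelled RNA, while the G1KO pair had 11.97 and 11.93 in WT and 11.22 and 11.08 in G1KO MEFs. The G2KO-labelled RNA was the lowest and its own WT the highest of the cultures, and no 2 cultures overlapped. A second Slit3 probe gave a mean log2 ratio of -2.70 in the G2KO-labelled RNA and -0.23 in G1KO MEFs, in the same directions but smaller.

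Slit2 was also lower. The Slit2 log2 ratios were -1.76 and -1.75 in the G2KO-labelled RNA, a 3.38-fold difference, and 0.16 and 0.20 in G1KO MEFs. A second Slit2 probe was called the same way at -1.64, and the other detected probes had means of -0.65 and -0.22. Slit1, the member best known from the nervous system, had means of 0.00 and -0.12.

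The Slit receptors followed another course. Robo1 was 3.30-fold higher in G1KO MEFs (log2 ratios of 1.76 and 1.69) and had 0.55 and 0.32 in the G2KO-labelled RNA. Its WT signal in the G1KO pair, 6.50 and 6.25, was well above background on 1 of the 2 arrays, whereas the WT of the G2KO pair had 8.69 and 8.76. Every other culture was therefore above the WT of the G1KO pair. Robo2 was above background in the G2KO comparison alone, with a mean of -0.50, and Robo4, an endothelial member, was above background in neither.

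Ntn4, a netrin related to laminins and found in basement membranes, was 2.36-fold higher in the G2KO-labelled RNA (1.09 and 1.38) and had -0.04 and -0.08 in G1KO MEFs. Ntn1, the netrin of the floor plate, had means of -0.08 and 0.00. Among the Unc5 receptors, which turn the response to netrin from attraction to repulsion, Unc5c went in opposite directions. It was 2.47-fold higher in G1KO MEFs (log2 ratios of 1.25 and 1.36) and lower in the G2KO-labelled RNA (-1.60 and -1.63), where neither array put it well above background, so that the fold is at least 3.06. Its log2 signal was 8.01 and 7.91 in G1KO MEFs and 7.64 and 7.96 in the WT of the G2KO pair, which overlapped, against 6.76 and 6.55 in the WT of the G1KO pair and 6.04 and 6.33 in the G2KO-labelled RNA. Unc5b, a receptor also found on endothelium, had the reverse signs, with means of -0.69 and 0.67, and was not called.

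Nrp1 was the gene called higher in both comparisons. Neuropilin 1 is the co-receptor through which Sema3a acts and is also a receptor for VEGF. Its log2 ratios were 1.17 and 1.09 in G1KO MEFs, a 2.19-fold difference, and 1.46 and 1.38 in the G2KO-labelled RNA, a 2.68-fold difference. The log2 signal was 9.74 and 9.80 in the WT of the G1KO pair and 10.91 and 10.88 in G1KO MEFs. It was 8.41 and 8.28 in the WT of the other pair and 9.87 and 9.67 in the G2KO-labelled RNA, which overlapped the WT of the G1KO pair. The 2 further Nrp1 probes had the same sign, at 0.81 and 0.86 in G1KO MEFs and at 1.003 and 1.07 in the G2KO-labelled RNA. The call in G1KO MEFs therefore rested on the brightest probe.

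Nrp2, which prefers Sema3f and also takes part in lymphatic growth, was not called and changed sign: its log2 ratios were 0.76 and 0.90 in G1KO MEFs and -0.83 and -0.76 in the G2KO-labelled RNA. The WT cultures differed more than that, with the WT of the G1KO pair lower by 2.04 on the log2 scale.

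The plexins, the signalling receptors for semaphorins, showed 1 call in G1KO MEFs and 3 in the G2KO-labelled RNA among the 6 detected in both comparisons. The shares of all detected genes called were 6.41% and 7.47%, and the difference was not tested. Plxna3, on chromosome X, was 3.17-fold higher in G1KO MEFs (1.58 and 1.75) and had -0.15 and 0.07 in the G2KO-labelled RNA. On its second probe, where WT was not well above background, it was higher by at least 1.39-fold and was not called. On the brightest probe the WT of the G1KO pair stood alone below the other cultures, at a mean log2 signal of 8.27. G1KO MEFs had 9.94, the WT of the G2KO pair 10.38 and the G2KO-labelled RNA 10.33.

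In the G2KO-labelled RNA, Plxnd1, the receptor for Sema3e, was 4.14-fold higher (2.02 and 2.07) and Plxnb1, a receptor for Sema4d, was 3.38-fold higher (1.65 and 1.86). Plxna2, a partner of the neuropilins, was 2.80-fold lower (-1.46 and -1.50), with means of -1.39 and -0.89 on its other probes. In G1KO MEFs the same genes had means of 0.66, 0.03 and -0.39. Sema3e and its receptor Plxnd1 were thus both higher in the G2KO-labelled RNA than in its WT, whereas Sema4d, the ligand of Plxnb1, had a mean of -0.04. For Plxnb1 the WT of the G2KO pair stood below the other cultures, at a mean log2 signal of 8.2 against 9.47 to 9.96.

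**Figure D3:**
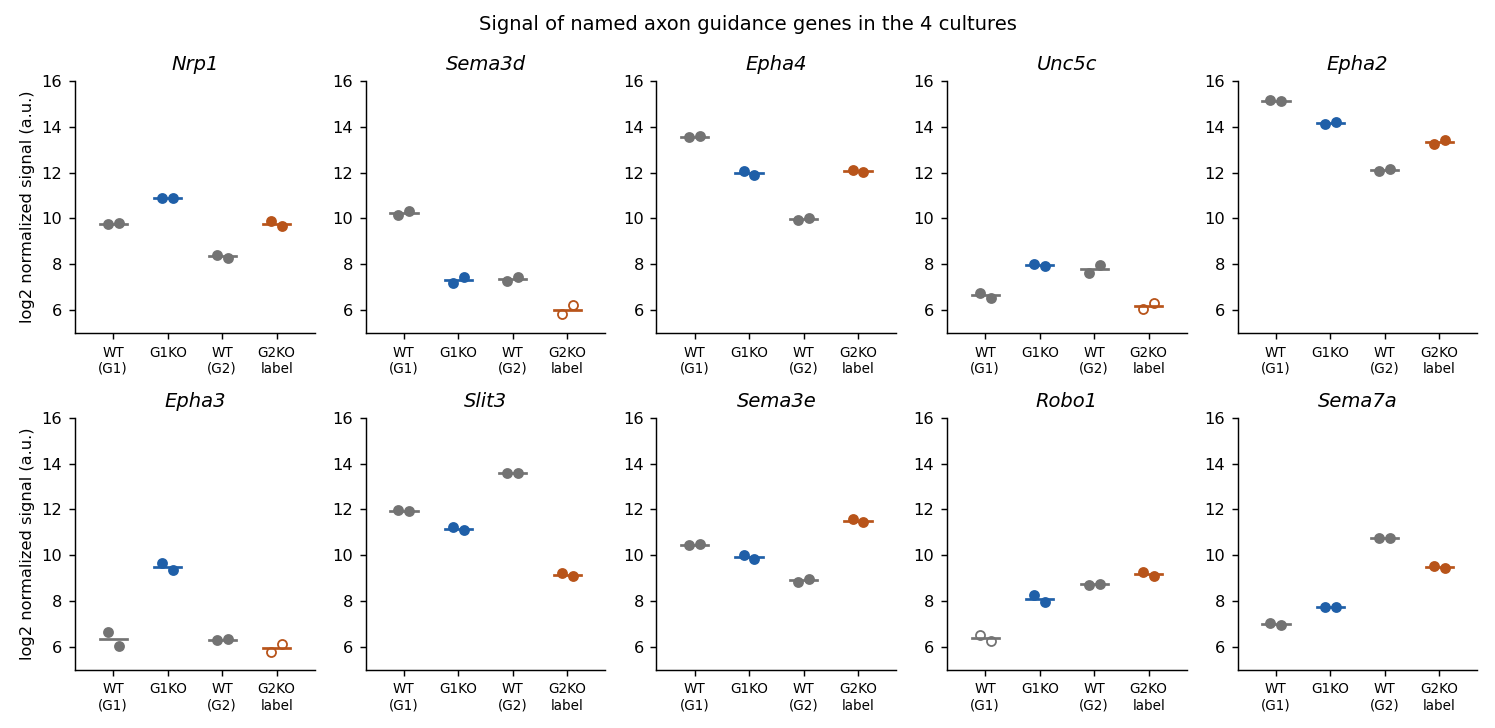
Log2 normalized signal (arbitrary units) of 10 named genes in the 4 cultures, with 1 point per array and a bar at the mean of 2 arrays; open points mark a culture that was not well above background on both arrays. WT (G1) and WT (G2) are the WT cultures of the G1KO and G2KO pairs, and they lie 3.57 apart for Epha4 and 3.77 apart for Sema7a; signals of different genes are not comparable.

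The Eph receptors, the largest family of receptor tyrosine kinases, had 3 calls among 8 genes in each comparison. Of all detected genes, 6.41% were called in G1KO MEFs and 7.47% in the G2KO-labelled RNA. The difference was not tested, and 8 genes are few. Epha3, which binds ephrin-A5 and is found in mesenchyme, had the largest rise of the set. It was 8.95-fold higher in G1KO MEFs, with log2 ratios of 2.99 and 3.33. The size of this rise depended on the processing. The mean log2 ratio was 3.16 in the main analysis, 4.09 with a background-correction offset of 10 and 5.40 with the scanner's own ratios. With the median over detected Epha3 probes it was 1.79. The log2 signal of Epha3 was 9.65 and 9.35 in G1KO MEFs against 6.66 and 6.02 in WT. In the other pair it was 6.29 and 6.34 in WT and not well above background in the G2KO-labelled RNA, so G1KO MEFs stood apart from every other culture. The 2 further Epha3 probes were also called higher in G1KO MEFs, by at least 3.46-fold and at least 2.49-fold, since WT was not well above background on them.

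Epha4, which binds ephrins of both classes, moved in opposite directions. It was 2.96-fold lower in G1KO MEFs (-1.47 and -1.67) and 4.21-fold higher in the G2KO-labelled RNA (2.17 and 1.98). Its log2 signal was 13.55 and 13.58 in the WT of the G1KO pair, 12.09 and 11.91 in G1KO MEFs, 9.95 and 10.04 in the WT of the G2KO pair and 12.12 and 12.03 in the G2KO-labelled RNA. Both knockout cultures thus had overlapping signals, and the WT cultures lay on either side of them. The second Epha4 probe gave means of -1.10 and 1.58 and was called in the G2KO-labelled RNA.

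Epha2, an epithelial and endothelial receptor for ephrin-A1, had a pattern of the same form. Its log2 ratios were -1.07 and -0.92 in G1KO MEFs, which was not called, and 1.16 and 1.30 in the G2KO-labelled RNA, a 2.35-fold rise. Its WT cultures lay 3.04 apart on the log2 scale, with the WT of the G1KO pair higher. Epha1 was 6.79-fold lower in the G2KO-labelled RNA (-2.83 and -2.69) and had 0.63 and 0.85 in G1KO MEFs. Ephb2, a receptor for B-class ephrins, was 2.39-fold higher in G1KO MEFs (1.24 and 1.28) and had -0.65 and -0.66 in the G2KO-labelled RNA, but its second probe had a mean of 0.38 in G1KO MEFs. For Ephb2 the WT of the G1KO pair stood below the other cultures, at a mean log2 signal of 7.9 against 9.0 to 9.66. Epha7 missed the rule in G1KO MEFs with 1.15 on 1 array and 0.9996 on the other. The mean log2 ratios of Ephb3 and Ephb4 were within 0.58 of 0 in both comparisons.

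Of the 19 genes called in at least 1 of them, 4 were called in G1KO MEFs alone, 11 in the G2KO-labelled RNA alone, 2 in both in the same direction and 2 in both in opposite directions. Among the 15731 genes detected in both comparisons, 6.41% were called in G1KO MEFs and 7.47% in the G2KO-labelled RNA, shared calls included. Of the 15731 genes, 0.979% were called in the same direction and 1.14% in opposite directions. The shares of all detected genes called in 1 comparison alone were not counted. Of the 49 genes, 6 were higher on all 4 arrays, 10 were lower on all 4, 20 had opposite signs in the pairs, with both arrays of each pair alike, and 13 had a pair whose arrays differed in sign. These sign patterns were not counted over all detected genes, so they are not read as a trait of the axon guidance genes. Pearson's r between the comparisons was 0.002 over the 49 genes (Spearman's rho -0.08) and -0.04 over all probes detected in both, given as a description across genes that are not independent.

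**Figure D4:**
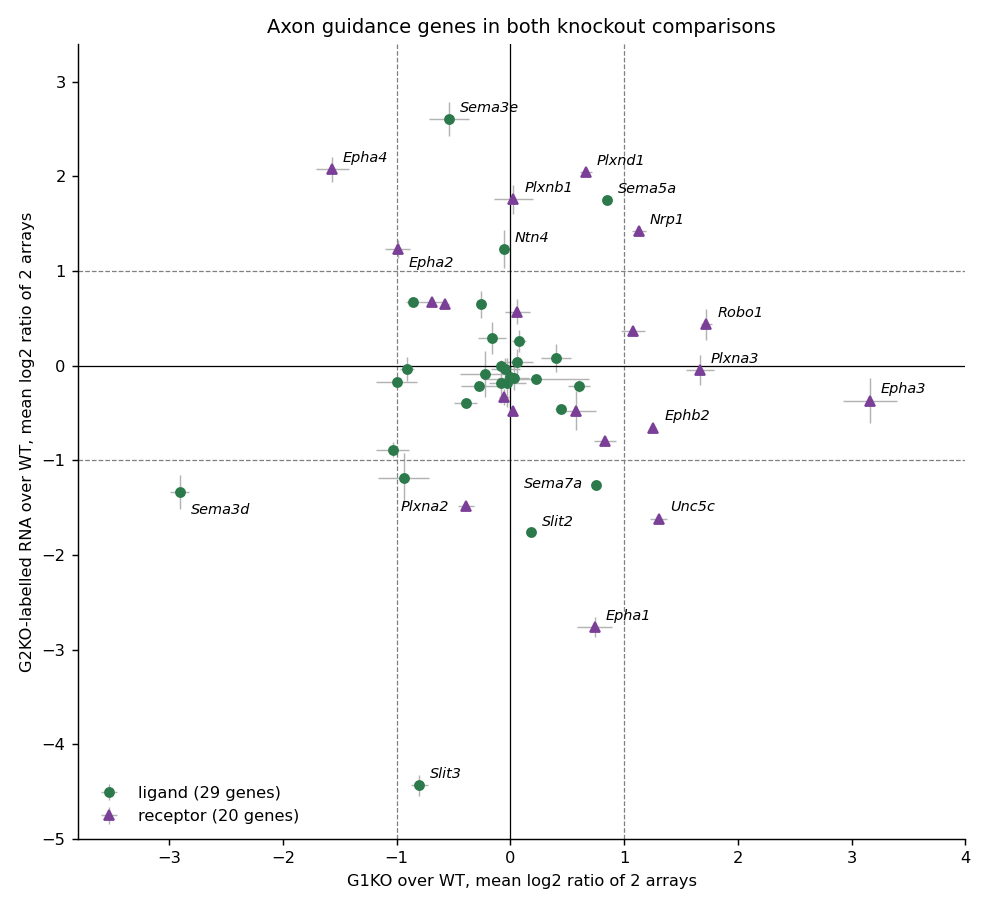
Mean log2 ratio in the G2KO-labelled RNA against that in G1KO MEFs for the 49 genes, ligands as circles and receptors as triangles, with bars for the SD between the 2 arrays and dashed lines at a log2 ratio of 1 in size; the 19 called genes are named. Nrp1 lies in the upper right and Sema3d in the lower left, Epha4 in the upper left and Unc5c in the lower right.

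Of the genes detected in 1 comparison, 4 were called there. Plxna4, a partner of neuropilins, was 3.60-fold lower in G1KO MEFs (-1.79 and -1.91), and on that probe it was not well above background in either culture of the other pair. A dimmer Plxna4 probe was called lower in G1KO MEFs as well, at -1.10, and was well above background in the WT of the other pair with a mean of -0.04 there, and a further probe was lower by at least 1.34-fold in G1KO MEFs. Plxnb3, on chromosome X, was 5.68-fold lower in G1KO MEFs (-2.48 and -2.53), and it too was not well above background in the other pair. Plxnc1, the receptor for Sema7a, was at least 5.65-fold lower in the G2KO-labelled RNA (-2.72 and -2.36), where its other probe was lower by at least 1.31-fold and was not called, and Plxnc1 was not well above background in the G1KO pair. Epha5 was at least 2.20-fold higher in the G2KO-labelled RNA (1.20 and 1.08). That call rested on the brightest Epha5 probe. The other Epha5 probes were not well above background in any culture and had means of 0.14 and 0.06 there. Plxnc1 was thus lower in the same culture as its ligand Sema7a. Sema4b, Sema6a, Sema3g and Ephb1 in the G1KO comparison, and Robo2, Sema4g and Ephb6 in the other, were detected without a call. Epha6, Epha8, Epha10, Robo4 and Unc5d were below background in both.

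Co-receptors and signalling genes of the same pathways were read from a list of 85 genes, of which 71 were detected in both comparisons. In G1KO MEFs 2 of the 71 were called higher and 7 lower (12.7%), and in the G2KO-labelled RNA 3 were higher and 6 lower (12.7%), beside the 6.41% and 7.47% of all detected genes. Between the WT cultures 14 of the 71 (19.7%) were called, beside 12.2% of all detected genes. Flrt3, a membrane protein that binds Unc5 receptors, was lower in both knockout comparisons, with log2 ratios of -3.22 and -3.53 in G1KO MEFs and of -3.52 and -3.68 in the G2KO-labelled RNA. Its relative Flrt2 was lower in the G2KO-labelled RNA (-2.43 and -2.41) and had -0.04 and -0.05 in G1KO MEFs. Dcc, the netrin receptor that attracts axons, was below background in both comparisons.

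Markers of other cell types moved in the same cultures. Beside the counts that follow, 2.4% of the 15731 genes detected in both comparisons were called higher and 4.0% lower in G1KO MEFs. In the G2KO-labelled RNA these shares were 2.55% and 4.92%. Of 10 mesothelial markers, 8 were called lower and 1 higher in G1KO MEFs, with a summed signal of 57500 to 62400 in G1KO MEFs against 257000 to 298000 in WT, Wt1 at a mean log2 ratio of -3.04 and Upk3b at -4.25. In the G2KO pair 7 of these 10 markers, Wt1 and Upk3b included, were not well above background in WT, Msln was higher (1.60) and Krt19 lower (-1.40) in the G2KO-labelled RNA, and the sums were 4050 to 4390 in the G2KO-labelled RNA and 1980 to 2040 in WT. Mesothelial transcripts were thus abundant in the WT of the G1KO pair, lower in G1KO MEFs and mostly at background in the G2KO pair.

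Of 10 fibroblast markers, 6 were called lower in the G2KO-labelled RNA, with Pdgfra at -4.63 and Thy1 at -3.22 and a sum of 317000 to 467000 against 819000 to 852000 in WT. In G1KO MEFs 2 fibroblast markers, Lum (1.31) and Pdgfrb (1.09), were higher and 1, Dcn (-4.05), was lower. The fibroblast sums there were 370000 to 516000 against 640000 to 681000 in WT. Of 10 neural progenitor and floor plate markers, 4 were called higher in the G2KO-labelled RNA, namely En2 (7.02), Foxa2 (6.10), Sox2 (5.59) and Nes (3.37), with a sum of 49800 to 51800 against 2410 to 2750 in WT, while Sox1, Prom1 and Zic1 were not well above background there. In G1KO MEFs 1 of them, Nes, was higher and 1, Zic1, was lower, with sums of 8780 to 9610 against 16800 to 17400. A high Foxa2 signal was not particular to the G2KO-labelled RNA. The mean log2 signal of Foxa2 was 13.09 there and 6.99 in its WT, beside 13.73 in the WT of the G1KO pair and 12.57 in G1KO MEFs.

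Of 12 neuronal markers, 0 were called in G1KO MEFs and 1, Map2, was lower in the G2KO-labelled RNA (mean log2 ratio of -1.24). Ncam1, Tubb3, Map2 and Elavl4 were well above background in all 4 cultures, Ncam1 at mean log2 signals of 13.24 to 14.58, whereas Rbfox3, Dcx, Elavl3 and Snap25 were not well above background in any. The neuronal sums were 15400 to 15500 in G1KO MEFs against 12100 to 13200, and 21100 to 21800 in the G2KO-labelled RNA against 26000 to 27500. Of 10 glial and neural crest markers, S100b was higher (2.60) and Mbp and Erbb3 were lower (-2.40 and -1.28) in G1KO MEFs (sums of 3560 to 3960 against 11600 to 12000) and 0 were called in the G2KO-labelled RNA (1470 to 1550 against 2300 to 2470). Of 10 endothelial markers, Flt1 was higher (3.27) and Emcn lower (-2.65) in G1KO MEFs, with sums of 3490 to 3690 against 1620 to 1670. Flt1 was lower (-1.42) in the G2KO-labelled RNA, with sums of 4620 to 4830 against 11000 to 12500. Flt1 had mean log2 signals of 8.16 and 13.43 in the WT cultures, 11.43 in G1KO MEFs and 12.01 in the G2KO-labelled RNA, while Pecam1 and Cdh5 were not well above background in any culture.

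Of 10 skeletal muscle markers, 0 were called in G1KO MEFs (32600 to 36700 against 32200 to 41100) and 1, Chrna1, was lower in the G2KO-labelled RNA (20600 to 24500 against 20100 to 21100). Of 8 macrophage markers, 0 were called in either comparison (1020 to 1090 against 1400 to 1470, and 1480 against 1380 to 1400), with Ptprc and Adgre1 not well above background in any culture. Of 8 epithelial markers, 1, Krt14, was lower in G1KO MEFs (3650 to 3950 against 14400 to 14600) and 0 were called in the G2KO-labelled RNA (584 to 601 against 577 to 582), and Epcam was not well above background in any culture. The part that mesothelial, fibroblast and neural progenitor cells had in the differences of the axon guidance genes was not tested. In whole cultures, fewer cells of a type and less RNA per cell cannot be told apart. A summed signal follows the brightest genes of its list and does not measure the amount of a cell type. Mean log2 signals were 14.58 for Ncam1 and 13.43 for Flt1 in the WT of the G2KO pair. They were 13.41 for Mbp and 13.77 for Krt14 in the WT of the G1KO pair. In those cultures each of these genes made up most of the sum of its list.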

How the data were processed

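RNA of 1 G1KO, 1 G2KO and 2 WT MEF cultures was hybridized in pairs, with dye swap, to 4 two-colour Agilent arrays of 45018 spots. The authors deposited the scanner output, with spot and background intensity per channel and a log10 ratio, and a series table of log10 ratios that equals the scanner ratio turned to knockout over WT. Feature Extraction is version 9.1 in the submitters' processing notes, while the file headers name a later release. The array annotation follows mouse build mm8.

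Intensities were corrected with normexp (offset 50) and loess within each array (limma 3.58.1, R 4.3.3), leaving out 114 to 203 outlier spots per array. Ratios were turned to knockout over WT and averaged over the pair. Signals per culture were taken after Aquantile scaling. A gene was detected when its brightest probe was well above background on both arrays in at least 1 genotype. Where 1 genotype was well above background on neither array, the fold is given as a bound. For it, the dim signal on each array was the higher of its own value and the lowest signal well above background. No test was made, because each genotype is 1 replicate, and precision is limited by the 4 arrays. The steps were tested on simulated data. The axon guidance genes, the pathway list and the marker lists for 9 cell types were chosen with earlier results of these data known. Every gene called in at least 1 comparison is named, with Nrp1 and Nrp2, and pathway genes called with a mean log2 ratio of at least 2 in size. The scanner names of 54 of the 65 genes matched a RefSeq transcript accession, and 3 further probes carry such genes under older names and were left out by the rule.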

Additional observations from a re-analysis of the deposited data

Results flagged for a closer look

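For 20 of the 49 genes both arrays of the G1KO pair had one sign and both arrays of the G2KO pair the other, and the difference between the pairs was not tested. How many of all detected genes had opposite signs was not counted, so the count is not read as a trait of this set. With the mean log2 ratio in G1KO MEFs minus that in the G2KO-labelled RNA as the measure, the difference was -3.64 for Epha4, 3.53 for Epha3, 3.50 for Epha1, -3.15 for Sema3e and 2.92 for Unc5c. Epha3 and Unc5c were not well above background in the G2KO-labelled RNA, so their values rest on a ratio with only a bound on that side, and the other Epha3 probes, below background in the G2KO pair, had means of 0.04 and 0.07 there. The difference was -2.23 for Epha2, 2.01 for Sema7a, 1.94 for Slit2, 1.91 for Ephb2, 1.62 for Nrp2, -1.53 for Efnb2, -1.36 for Unc5b, -1.29 for Ntn4, -1.23 for Plxnb2 and 1.05 for Ephb3. It was under 1 in size for Sema3b (-0.914), Sema3a (0.904), Efna4 (0.817), Ephb4 (0.505) and Efnb3 (-0.454). Of these genes, Epha4 and Unc5c were called in both comparisons.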

How the results depend on the processing

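All 30 called ratios of named genes kept their direction in the 295 values recomputed under the alternatives, and 293 of those values stayed at least 1 in size. The exceptions were Ephb2 (0.82) and Nrp1 (0.89) in G1KO MEFs, with the median over all detected probes of the gene. The size of a ratio could still move. For Epha3 in G1KO MEFs it was 3.16 in the main analysis and ran from 1.79 with that median to 5.40 with the scanner's own ratios. Counts of axon guidance genes also moved, and are given as higher and lower in G1KO MEFs, then higher and lower in the G2KO-labelled RNA. The scanner's own ratios and the deposited series table gave 10 and 4, then 8 and 9, with medians of 0.044 and -0.169, and pathway counts of 4 and 10, then 5 and 8. Median centring gave 4 and 1, then 6 and 4, with medians of 0.041 and -0.102, and pathway counts of 0 and 2, then 1 and 4. Without background correction the counts were 7 and 3, then 8 and 8 (median -0.145 in the latter), and with an offset of 10 they were 8 and 5, then 8 and 8 (median -0.157). With both genotypes well above background they were 3 and 1, then 8 and 5. With every probe counted they were 8 and 6, then 14 and 12 (median -0.026 in the latter), and 4 and 15, then 4 and 11 for the pathway probes. With the median over detected probes they were 4 and 4, then 8 and 8 (median -0.089 in the latter), and the pathway had 1 higher in the latter. A threshold of 2 left 1 and 1, then 2 and 2, pathway counts of 0 and 1, then 0 and 2, and 4 higher and 3 lower between the WT cultures. Without a demand on each array 7 were higher and 4 lower in G1KO MEFs. Leaving out 1 array gave 6 to 7 higher and 3 to 5 lower in G1KO MEFs (5 without the array that had knockout RNA in Cy5; medians -0.046 to 0.015) and 8 higher and 7 to 8 lower in the G2KO-labelled RNA (medians -0.127 to -0.104). Counts with outlier spots kept, and WT counts with quantile normalisation, with each dye alone or with both WT cultures well above background, stayed within 1.5 times. The causes of these moves were not tested. No paired analysis was possible because the result comes from no test and each genotype is 1 culture.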
